A study of Mus musculus with 2 samples.

Results

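The transcripts of 10 genes that sense drugs, bile acids, lipids and oxidants were measured in mouse small-intestinal organoids cultured with the cytokine RankL and in organoids cultured without it. The genes are Ahr, Nfe2l2, Nr1i2, Nr1i3, Nr1h4, Nr1h3, Ppara, Vdr, Rxra and Nr5a2. They were chosen by name as the ligand-activated receptors, together with Nrf2, that control drug and lipid metabolism. They were found through the RefSeq accessions of the probes, so the rule itself used no measured value. Earlier results of these data were, however, known when the genes were chosen. All 10 had a probe and all 10 were measured, through 12 of the 41174 probes, among 12877 measured genes or accessions. In the RefSeq table of the mouse assembly GRCm38.p6 they lie on chromosome 12 (Ahr), chromosome 2 (Nfe2l2, Nr1h3 and Rxra), chromosome 16 (Nr1i2), chromosome 1 (Nr1i3 and Nr5a2), chromosome 10 (Nr1h4) and chromosome 15 (Ppara and Vdr).

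The organoids were epithelial structures grown from intestinal crypts of wild-type mice in medium with EGF, Noggin and R-spondin, and both groups shared this medium. For the treated organoids recombinant mouse RankL was put into the culture at 50 to 200 ng/ml, and medium was renewed at day 2 and again at day 5. The untreated organoids received no RankL. The dose and harvest time of these RNAs, and the age and strain of the mice, are not given in the labels. One RNA of each group was hybridised on 2 dual-colour Agilent arrays, the second being the dye swap of the first, and Cy3 labelled the RankL RNA on array 1, Cy5 on the swap. The series concerns M cells, the antigen-sampling epithelial cells that RankL induces.

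Nuclear receptors are transcription factors switched by small lipophilic ligands, and many of them bind DNA as pairs with a retinoid X receptor. In the intestinal epithelium PXR and CAR respond to drugs and steroids and drive cytochromes P450, transferases and transporters, FXR responds to bile acids, LXR to oxysterols, PPARalpha to fatty acids and VDR to the hormonal form of vitamin D. AhR and NRF2 belong to other families: AhR is a basic helix-loop-helix factor that binds planar aromatic ligands, and NRF2 is a bZIP factor that is released from its inhibitor Keap1 by oxidants and electrophiles.

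The upstream sequences of the genes that read farthest below 0 are shown here to set them beside the values that follow. RefSeq promoter windows of GRCm38.p6 were at hand for 9 members, in 12 windows, and Ahr is named only. Each line gives the 250 bases before the annotated start, 5′ to 3′ on the gene's strand, and capitals mark matches on either strand to the motifs named below.
Vdr, chr15:97908297-97908546, minus strand: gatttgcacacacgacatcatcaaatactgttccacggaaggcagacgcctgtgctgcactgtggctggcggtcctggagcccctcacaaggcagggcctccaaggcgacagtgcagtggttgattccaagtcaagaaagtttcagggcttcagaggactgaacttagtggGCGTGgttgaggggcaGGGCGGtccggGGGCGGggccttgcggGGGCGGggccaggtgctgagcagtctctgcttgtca
Nr1h4, chr10:89506659-89506908, minus strand: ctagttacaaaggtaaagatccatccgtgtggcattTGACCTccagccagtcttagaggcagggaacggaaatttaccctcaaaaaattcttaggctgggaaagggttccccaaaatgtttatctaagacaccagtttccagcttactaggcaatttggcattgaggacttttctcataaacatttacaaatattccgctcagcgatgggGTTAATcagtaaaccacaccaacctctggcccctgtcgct
Ppara, chr15:85735526-85735775, plus strand: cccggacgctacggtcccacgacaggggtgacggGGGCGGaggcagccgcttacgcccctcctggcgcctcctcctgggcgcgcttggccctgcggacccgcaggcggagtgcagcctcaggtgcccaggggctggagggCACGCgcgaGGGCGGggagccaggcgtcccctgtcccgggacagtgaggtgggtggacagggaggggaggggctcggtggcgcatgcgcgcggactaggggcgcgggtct

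The motifs searched on both strands were AGGTCA (the core bound by many nuclear receptors), GCGTG (the AhR core), TGACNNNGC (the NRF2 antioxidant response element), GAGGAA (an Ets core of the Spib type), GTTAAT (a hepatocyte nuclear factor core), GGGCGG (the Sp1 GC box) and the NF-kB kappaB motif. The last matched 0 of the 12 windows, while 7.25% of all 32851 windows of this length held it, and GAGGAA also matched 0, against 23.2% of all windows. The Vdr window held 3 GC boxes and 1 GCGTG, the Ppara window 2 GC boxes and 1 GCGTG, which 32.7% and 28.2% of all windows held at least once. The GCGTG of Ppara is on the opposite strand and is printed as CACGC. The Nr1h4 window held no GC box. It had 1 AGGTCA on the opposite strand, printed as its reverse complement and starting 214 bases before the start site, and 1 GTTAAT, held by 14.0% and 6.43% of all windows. The windows also differed in base composition, with a GC content of 61.2% for Vdr, 44.4% for Nr1h4 and 76.4% for Ppara, and a median of 52.4% over all windows. Elsewhere among the 12 windows TGACNNNGC matched 1, that of Nfe2l2, against 10.2% of all windows. Over all 12 windows AGGTCA matched 3, GCGTG 3, GTTAAT 2 and GGGCGG 4. The 12 windows belong to 9 genes and the 2 of Nr1h3 overlap, so these counts are too small to read against the shares. A match describes these letters and is not evidence of binding.

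Values are normalised intensities in arbitrary units and log2 ratios of RankL over untreated, and the ± of a ratio is the SD of the 2 arrays. That SD is a technical error, because both arrays carry the same RNA pair. For the same reason, values of the 2 RNAs that do not overlap describe only repeated readings of 1 pair. Overlap was not counted over all measured genes, so its presence or absence in a gene is given as a reading only. With 1 RNA per group no test was possible and no p-value is given. To count as higher or lower, a gene needed a mean log2 ratio of 1 or more in size, a change of 2-fold or more, with both arrays beyond 0.5 on that side. That rule was met upwards by 704 genes, or 5.47% of those measured, and downwards by 322 genes, or 2.5%, together 7.97%. Of the 10 sensors 1 was higher, 2 were lower and 7 met the rule in neither direction. Their median ratio was -0.30, against 0.0086 over all measured genes. Levels are not compared between genes, since each probe has its own brightness.

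**Figure D1:**
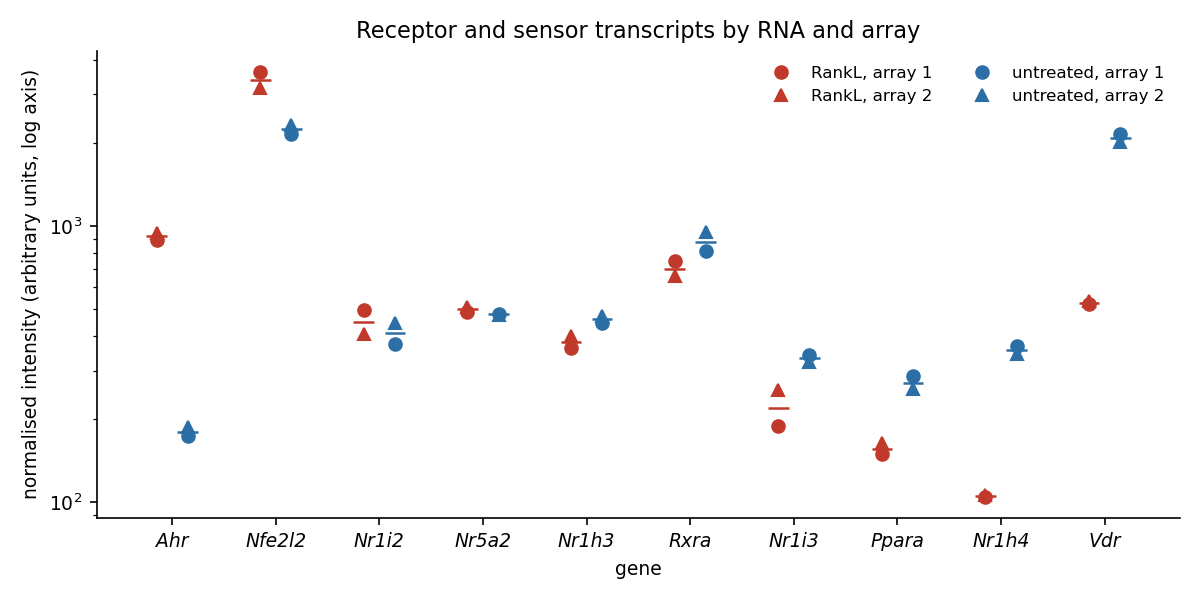
Normalised intensity in arbitrary units on a log axis for the 10 genes, with RankL RNA in red to the left of untreated RNA in blue, circles for array 1, triangles for array 2 and bars for their geometric mean. Ahr stood higher with RankL on both arrays, Vdr and Nr1h4 stood lower on both, and the Nr1i2 points of the RNAs overlapped.

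The xenobiotic sensors did not move together, and Ahr stood apart from the rest. Ahr, the receptor for dioxins, plant indoles and other aromatic ligands, read 889 and 947 in RankL RNA, against 174 and 187 in untreated RNA. All RankL values lay above all untreated values. Its log2 ratio was 2.35 ± 0.013, or 5.09-fold, which placed it at rank 143 from the top of 12877 genes. The Ahr probe was printed 10 times on each array, and its single spots ran from 1.94 to 2.52 on array 1 and from 2.13 to 2.57 on array 2. The SD between these spots, 0.165 and 0.137, was larger than the difference between the array means.

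Nfe2l2, which encodes NRF2, read 3615 and 3155 in RankL RNA, against 2159.5 and 2328 in untreated RNA. The readings of the 2 RNAs did not overlap, but the log2 ratio of 0.59 ± 0.22 was short of the rule. A second Nfe2l2 probe read 0.72, so both probes lay above 0. Nr1i2, which encodes PXR, read 499 and 406 in RankL RNA, against 376 and 447 in untreated RNA. These values overlapped, and the log2 ratio was 0.41 on array 1 and -0.14 on array 2, opposite in sign between the dye orientations. Nr1i2 was the only one of the 10 genes with opposite signs, and 72.4% of all measured genes had the same sign on both arrays.

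Nr1i3, which encodes CAR, the close relative of PXR that is best known from liver, read 189 and 255 in RankL RNA, against 343 and 323 in untreated RNA. Both RankL values were below both untreated values, at a log2 ratio of -0.60 ± 0.36 that did not meet the rule. Its ratio was -0.86 on array 1 and -0.34 on array 2, one of the widest gaps among the 10 genes, whose SDs between arrays ran from 0.013 to 0.39 with a median of 0.155.

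The receptors for vitamin D and bile acids were the ones that were lower. Vdr, which controls intestinal calcium uptake, read 521 and 538 in RankL RNA, against 2152 and 2023 in untreated RNA. The RankL values were all below the untreated ones. The log2 ratio was -1.98 ± 0.095, or 3.94-fold lower, at rank 66 from the bottom. Nr1h4, which encodes FXR, read 104.97 and 106.65 in RankL RNA, against 368 and 343 in untreated RNA. Its readings did not overlap either, and the log2 ratio of -1.75 ± 0.085, or 3.36-fold lower, stood at rank 89 from the bottom. The probe was well above background in both RNAs on both arrays, but the size of its ratio depended on the processing. It read -2.17 when the normexp offset was lowered to 16 and -3.14 in the ratios of the scanner software, which differ in both background subtraction and dye normalization.

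The lipid receptors Ppara and Nr1h3 lay below 0 without meeting the rule. Ppara, the receptor that turns on fatty acid oxidation, read 149 and 165 in RankL RNA, against 287 and 257 in untreated RNA. The values did not overlap, and the log2 ratio was -0.79 ± 0.22. Of the 10 spots of this probe 9 were used on array 1, with ratios from -1.25 to -0.83, and all 10 on array 2, with ratios from -0.94 to -0.45. All 19 spot ratios were thus below 0. With the scanner software's ratios Ppara read -1.26 and was lower by the rule. Nr1h3, which encodes LXRalpha, the oxysterol receptor that governs cholesterol efflux, read 361 and 399 in RankL RNA, against 447 and 474 in untreated RNA, a log2 ratio of -0.28 ± 0.042.

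Rxra encodes the common dimer partner of PXR, CAR, FXR, LXR, PPARalpha and VDR, and it read 749 and 658 in RankL RNA, against 812 and 951 in untreated RNA. The log2 ratio was -0.32 ± 0.29, with -0.12 on array 1 and -0.53 on array 2, and a second probe read -0.26. Nr5a2, which encodes LRH-1, a receptor that binds DNA as a monomer and is active in crypts, read 488 and 511 in RankL RNA, against 482 and 477 in untreated RNA. Its log2 ratio of 0.059 ± 0.058 was the nearest to 0 of the 10 genes. Set side by side, 5 of the 6 receptors that pair with RXR lay below 0, with a median of -0.70 and a range from -1.98 to 0.14, while 49.0% of all measured genes lay below 0.

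**Figure D2:**
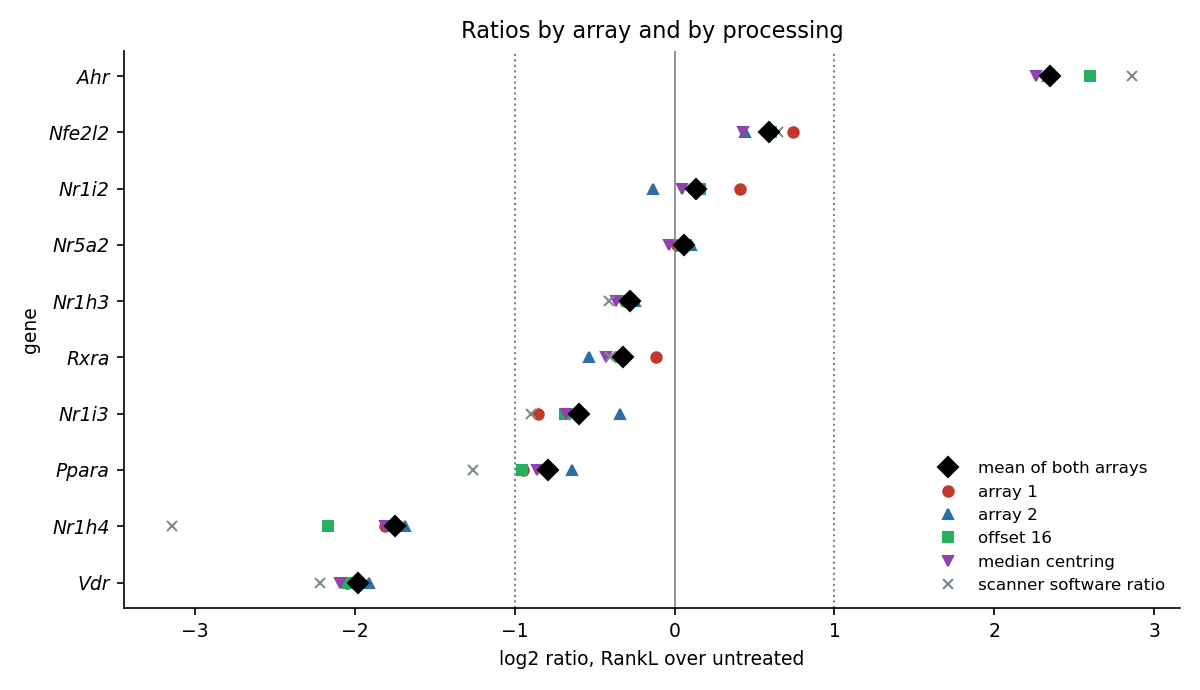
Log2 ratio of RankL over untreated for each gene, with the mean of both arrays as black diamonds, each array alone, and the ratios under 3 other ways of processing; dotted lines mark -1 and 1. Ahr lay above 1, and Vdr and Nr1h4 below -1, in every array and setting shown, while Ppara crossed -1 only with the scanner software's ratios.

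**Figure D3:**
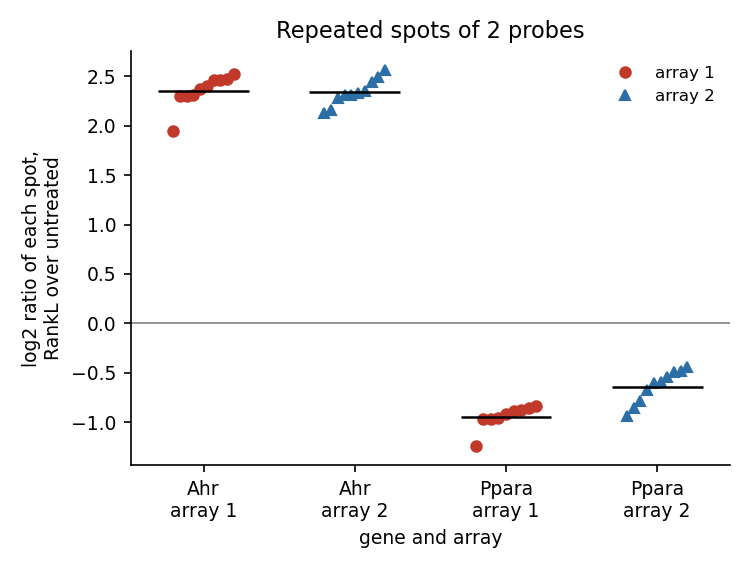
Log2 ratio of every spot of the Ahr and Ppara probes that was not flagged as an outlier, by array, with black bars at the means. Ahr spots lay between 1.94 and 2.57 and Ppara spots between -1.25 and -0.45, with no spot on the other side of 0.

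**Figure D4:**
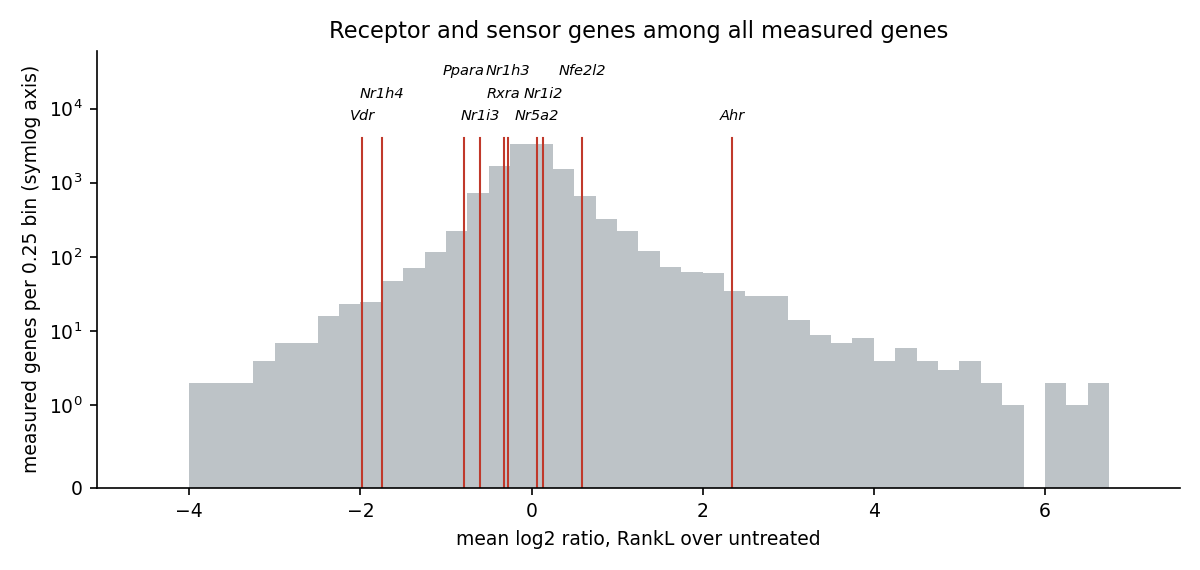
Number of measured genes per bin of mean log2 ratio, as grey bars on an axis that is linear up to 1 and logarithmic above, with the 10 genes as red lines. Ahr at 2.35 lay in the upper tail and Vdr at -1.98 and Nr1h4 at -1.75 in the lower tail, while the other genes lay between -0.79 and 0.59.

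Markers of the tissue were checked next. All 6 markers of intestinal epithelium were measured and none met the rule. All 8 M cell markers were higher with RankL, against 5.47% of all measured genes. Because this list was written with earlier results of these data known, the count is no independent check. Summed intensities were 62226 and 64630 in RankL RNA, against 2842 and 2285 in untreated RNA, over probes of unlike brightness. In untreated RNA Sox8 was not above background, and Ccl20 was so on 1 array only. Of 8 markers of absorptive enterocytes 4 were higher and 1, Fabp1, was lower. Of the markers of cells outside the epithelium, 2 of 6 fibroblast genes were measured and met the rule in neither direction, and 0 of 5 leukocyte genes with a probe and 0 of 4 endothelial genes were measured. The liver genes Alb, Ttr and Cyp2e1 were not measured, while Apob, which enterocytes also express, was at 1.36 ± 0.40, with 4 further probes from 0.28 to 0.43. In such bulk RNA, fewer cells of a type and less RNA per cell cannot be told apart, and the part of the shift in M cell and enterocyte markers in the receptor values was not tested. Between 38.3% and 43.4% of spots were well above background in each RNA.

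Genes known as targets of the receptors were followed in 8 lists that held 122 different genes, of which 91 were measured. Of these 9 were higher and 25 were lower, and the other 57 met the rule in neither direction. Over all measured genes 5.47% were higher and 2.5% lower, the shares to set beside the counts of every list. Some of these genes were already known to be among the lowest of these arrays when the lists were written, so the counts are no independent evidence of direction.

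**Figure D5:**
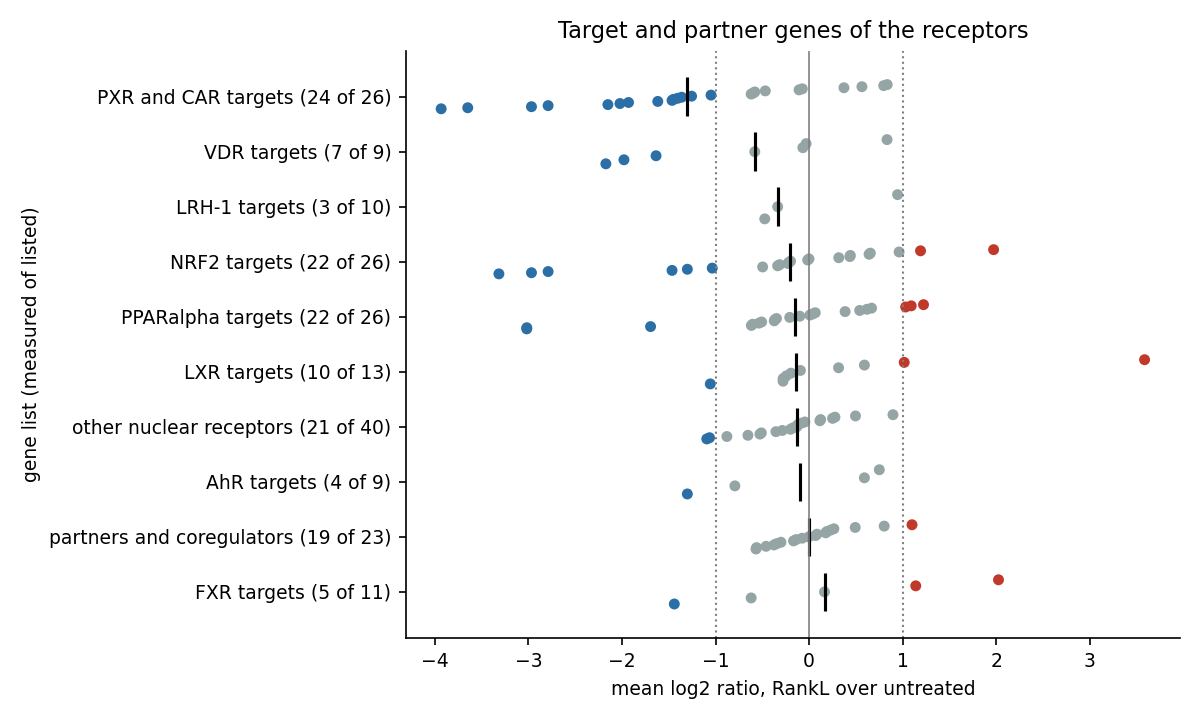
Mean log2 ratio of RankL over untreated for every measured gene of the 8 target lists and of the lists of other nuclear receptors and of partners, with black bars at the medians and dotted lines at -1 and 1; red marks genes at 1 or above and blue genes at -1 or below. The targets of PXR and CAR had the lowest median, -1.31. In that list 14 of 24 genes were lower and 0 higher, against 2.5% and 5.47% of all measured genes. Earlier results of these data were known when the lists were written.

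Targets of PXR and CAR were the list that was lower most often. Because the lists were written with earlier results of these data known, this order is no independent evidence. Of the 2 receptor genes, Nr1i2 read 0.14, with opposite signs on the arrays, and Nr1i3 read -0.60. Neither met the rule. Of 24 measured genes out of 26, 14 were lower and 0 higher, against 2.5% and 5.47% of all measured genes. Their median was -1.31. The 4 genes above 0 were Alas1 at 0.83, Cyp2c55 at 0.80, Abcc4 at 0.56 and Cyp3a13 at 0.37. A second probe of Alas1 read 0.54. Cyp2c55 read 1.04 in the scanner software's ratios and was higher by the rule there. Among the 14, second probes of Cyp3a25, Cyp2b9 and Sult1b1 read -0.69, -0.64 and -0.47, short of the rule. The second probe of Gstm1 read -2.52. Cyp3a25 was not above background in RankL RNA. With the median over probes 13 genes were lower. The carboxylesterases Ces2a and Ces1f read -3.93 ± 0.16 and -3.65 ± 0.39. The glutathione transferases Gsta1 and Gstm1, which couple glutathione to electrophiles, read -2.97 ± 0.099 and -2.79 ± 0.076. The cytochromes P450 Cyp2c66 and Cyp2c65 read -2.15 ± 0.26 and -2.02 ± 0.00396.

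Cyp3a11, the usual readout of PXR in mouse, was at -1.44 on array 1 and -1.37 on array 2. Cyp2b10, the usual readout of CAR, was at -1.31 on array 1 and -1.58 on array 2. Both were lower by the rule. The 14 genes were all enzymes, of 20 enzymes measured, while 0 of 4 measured transporters met the rule and their median was -0.090. Near-identical relatives of many of these enzymes may bind the same probe, so a value cannot be assigned to 1 gene with certainty. The listed genes that were not measured were Ugt1a1 and Slco1a4.

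Targets of FXR were measured in 5 of 11 cases and did not share a direction. Slc51b and Slc51a, which encode the subunits of the basolateral bile acid exporter OSTalpha-OSTbeta, were higher at 2.02 ± 0.25 and 1.14 ± 0.25, while the receptor gene Nr1h4 was lower. Slc51a read 0.97 on array 1 alone, short of 1. Sdc1, a cell-surface proteoglycan, was lower at -1.44 ± 0.011. The best-known direct targets gave no ratio. Fgf15, the hormone that reports bile acids to the liver, was not well above background in any RNA, and Nr0b2, the corepressor SHP, was so in RankL RNA on 1 array only.

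Among 10 measured targets of LXR out of 13, Nr1h3 itself included, 2 were higher and 1 lower, with a median of -0.14. Arl4c, a small GTPase, was higher at 3.59 ± 0.099. The desaturase gene Scd1 was higher at 1.02 ± 0.54, but read 0.64 on array 1 alone and 0.89 with median centring in place of loess, both short of 1. Lpcat3, which puts polyunsaturated acyl chains into phospholipids, was lower at -1.06 ± 0.20 and read -0.91 on array 1 alone. The cholesterol exporter Abca1 was well above background on 1 array of untreated RNA only and was not measured.

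Of 22 measured targets of PPARalpha out of 26, 3 were higher and 3 lower, with a median of -0.15. Fabp1, the liver-type fatty acid binding protein, and Acot1, an acyl-CoA thioesterase, were lower at -3.02 ± 0.29 and -3.02 ± 0.091. Acaa2, the last enzyme of mitochondrial beta-oxidation, was lower at -1.69 ± 0.020. Creb3l3, a membrane-bound transcription factor of lipid metabolism, was higher at 1.22 ± 0.23.

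Fabp2, the intestinal fatty acid binding protein, read 1.09 ± 0.13, but its second probe read 0.59 and median centring gave 0.74. Pdk4, a kinase that restrains pyruvate oxidation, was dim in untreated RNA on both arrays and at least 1.98-fold higher with RankL. That bound is short of the 2-fold of the rule, so its count among the 3 higher genes rests on a ratio against a signal that was not above background. Cpt1a, the gate of fatty acids into mitochondria, read -0.62 ± 0.13, with a second probe at -0.34.

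Ahr was higher, but its targets were mostly dim. Of 9 listed genes, Nfe2l2 among them, 4 were measured, with 1 lower and 0 higher. Cyp1a1, the classic AhR target, was not well above background in untreated RNA and was at least 1.52-fold higher with RankL. Only this bound is given, because its ratio is set against a signal that was not above background. For the same reason its place under the rule depended on the processing: it was counted as higher when the offset was lowered to 16 and in the ratios of the scanner software, and not otherwise. Tiparp, an AhR-induced ADP-ribosyltransferase, read -0.79 ± 0.22, or -1.07 with the software's ratios. Nqo1, a quinone reductase that AhR and NRF2 both drive, was lower at -1.30 ± 0.19.

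Of 6 measured targets of VDR other than Vdr itself, 2 were lower by the rule and 0 higher, with a median of -0.32. Cldn2, a claudin that forms cation pores in tight junctions, was lower at -2.17 ± 0.00356, and S100g, the calcium-binding protein calbindin-D9k, was lower at -1.64 ± 0.34. Atp2b1, a calcium pump, read 0.83 ± 0.25 and passed 1 on array 2 alone, at 1.01. Cyp24a1, which degrades vitamin D hormone, and the calcium channel gene Trpv6 were not well above background in either RNA.

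Targets of NRF2 met the rule in both directions. Of 22 measured out of 26, 2 were higher and 6 lower, with a median of -0.21. Cbr3, a carbonyl reductase, was lower at -3.32 ± 0.028, and Gsr, glutathione reductase, at -1.04 ± 0.25, or -0.86 on array 1 alone. Gsta1, Gstm1 and Gsta4 (-1.46 ± 0.098), which the list shares with that of PXR and CAR, and Nqo1 were the other genes lower. Srxn1, sulfiredoxin, was higher at 1.97 ± 0.17, with further probes at 1.36 and 1.47, and Gclc, the catalytic subunit of the enzyme that starts glutathione synthesis, at 1.19 ± 0.15. Without the genes shared with PXR and CAR, 2 were higher and 3 lower of 19, with a median of -0.015.

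Of 10 targets of LRH-1, 3 were measured, and they met the rule in neither direction. Fgfr4, a receptor for Fgf15, read 0.95 ± 0.11, and passed 1 on array 1 alone at 1.02. The cyclin gene Ccne1 read -0.47 ± 0.052 and the HDL receptor Scarb1 -0.34 ± 0.24. Cyp11a1, which starts steroid synthesis, was not well above background in either RNA.

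Among 40 other nuclear receptors 21 were measured, with a median of -0.13. Of these, 0 were higher and 2 lower, against 5.47% and 2.5% of all measured genes. Counts this small cannot be read against those shares. Nr2e3, known from photoreceptors, read -1.09 ± 0.28 and was above background in RankL RNA on 1 array. Thra, the thyroid hormone receptor alpha, read -1.06 ± 0.11, with a second probe at -0.93. On array 2 alone they read -0.90 and -0.99, so that none of the 21 was lower there. Esrrg, an orphan receptor of oxidative tissues, read 0.90 ± 0.28 and was above background in untreated RNA on 1 array. It was higher by the rule with an offset of 16, in the scanner software's ratios and on array 2 alone.

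Of 19 measured partners and coregulators 1 was higher, the coactivator gene Ncoa3 with 1.18 on array 1 and 1.02 on array 2, and its further probes read 0.19 and 0.68. The coactivator gene Ppargc1a read -0.57 ± 0.21, with a second probe at -0.41. The list's median was -0.0036. Keap1, the inhibitor of NRF2, read -0.56 ± 0.15, and Arnt, the dimer partner of AhR, 0.19 ± 0.074. Keap1, Arnt, Atp2b1, Trpv6, Ugt1a1 and Slco1a4 were chosen for naming after their values were seen. So were Gclc, Gsr, Alas1, Cyp2c55, Abcc4, Cyp3a13, Cyp3a25, Cyp2b9, Sult1b1 and Sox8.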

How the data were processed

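Total RNA was measured on 2 dual-colour arrays. The deposited scanner files hold spot and local background intensity as medians per channel, with no normalization, per the file headers (Agilent Feature Extraction 10.5.1.1, while the submitters' processing notes name 8.5.1.1). That software also wrote the deposited log10 ratios, red over green, after its own background subtraction and dye normalization, per the file headers. The series matrix holds the same values with array 1 turned to RankL over untreated (largest difference 5.0e-06, with a median of 0 in each column). Other deposited columns are flags of 0 or 1, per the file headers.

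For background correction normexp was used with an offset of 50 (limma 3.58.1, R 4.3.3), and each array was normalized by loess with 1639 control spots at weight 0. Outlier spots (170 and 164 of 43379 non-control spots) were left out, and 0 were saturated. Spots of a probe were averaged, and ratios were turned to RankL over untreated and averaged over arrays. Levels were taken per channel after Aquantile normalization between arrays. A probe was measured if at least 1 RNA was flagged well above background on array 1 and array 2, for repeated probes in 0.5 or more of the spots. A gene took its brightest measured probe. Symbols were found through RefSeq accessions for 26918 of 41174 probes. For a gene dim in 1 RNA the "at least" fold sets the bright RNA against the lowest signal well above background, or its own signal where higher.

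Named were all 10 members, up to 6 genes a list that met the rule (or the 3 largest by size where fewer than 3 did) and fixed direct targets. Some genes that this rule names are not reported here. Members and lists were chosen with earlier results of these data known. As arrays 1 and 2 are dye swaps of 1 RNA pair, they are 1 replicate, and no pattern across samples could be sought. Both lie on 1 slide, so no batch could be tested. Processing was tested on simulated data, with known ratios put into spots well above background and no dye bias. That test does not cover dye effects or dim genes. Alternatives were an offset of 16, median centring, the software's ratios, dim probes, the median over probes and each array alone.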

Additional observations from a re-analysis of the deposited data

How the results depend on the processing

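The calls of Ahr as higher and of Vdr and Nr1h4 as lower held in the 5 alternatives that could change them (each gene has 1 measured probe, so the choice of probes could not), and Ppara became lower in the ratios of the scanner software. Nr5a2 changed sign with median centring and Nr1i2 on array 2 alone, and neither met the rule. Some sizes moved by more than the SD between arrays. In the software's ratios Ahr read 2.86, Nr1h3 -0.41, Nr1h4 -3.14, Ppara -1.26 and Vdr -2.22. An offset of 16 gave 2.60 for Ahr and -2.17 for Nr1h4. Median centring gave 2.26 for Ahr, -0.37 for Nr1h3, -0.033 for Nr5a2 and -2.09 for Vdr. Over all genes the software's ratios called 1148 higher and 781 lower. In the lists they gave 1 higher and 2 lower of the AhR targets, 2 lower of the FXR targets, 1 higher of the LRH-1 targets, 4 higher of the NRF2 targets, 1 higher of the PXR and CAR targets, and 1 higher and 5 lower of the other nuclear receptors. An offset of 16 gave 1 higher of the AhR targets, of the LRH-1 targets and of the other nuclear receptors. Median centring gave 1 higher LXR target. The median over probes gave 1 lower nuclear receptor and 0 higher partners. With single arrays, counts ran from 1 to 2 for FXR targets higher, 0 to 1 for LRH-1 targets higher, 1 to 2 for LXR targets higher, 0 to 1 for LXR targets lower, 0 to 1 for VDR targets higher, and 0 to 1 higher and 0 to 2 lower for the other nuclear receptors. The cause of these moves was not tested. List medians ran from -1.64 to -1.15 for PXR and CAR, 0.063 to 0.30 for FXR, -0.27 to 0.013 for LXR, -0.30 to -0.073 for PPARalpha, -0.25 to 0.052 for AhR, -0.70 to -0.067 for VDR, -0.34 to -0.12 for NRF2, -0.58 to 0.058 for LRH-1, -0.23 to -0.093 for the other nuclear receptors and -0.13 to 0.0021 for partners. Those of LXR and AhR were above 0 on array 1 alone, that of LRH-1 with dim probes included and that of partners with an offset of 16. The VDR range is for the list with Vdr itself, whose main median was -0.58, and its upper end came with dim probes included. No paired analysis was possible because both arrays hold 1 RNA pair. The signal over background limits the dim targets, and 1 RNA per group leaves the spread between cultures unknown.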
